A study of Urocitellus parryii with 3 samples.

Results

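Liver small RNA of Urocitellus parryii, the arctic ground squirrel and a hibernating rodent, was compared between late torpor and the summer stage after reproduction. The study made 3 pooled libraries from 14 animals, and 2 of the 3 are compared here. Late torpor (LT) is a pool of 4 animals that were kept under 4 h of light and 20 h of dark, followed by body-temperature telemetry and killed on day 4 of a torpor bout that followed 4 or more earlier bouts. Post-reproduction (PR) is a pool of 6 non-hibernating animals with normal body temperature, housed at 20 °C under 16 h of light and 8 h of dark. The summer animals were anaesthetised with isoflurane before death and the torpid animals were not. Season, light cycle, body temperature, anaesthesia and torpor therefore differed together between the libraries and cannot be told apart. Age, sex and genotype are not given in the labels used here. The third library, early arousal (EA, 4 animals), served for scaling, and its values are printed where they help to read a difference.

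Each distinct 30-base read was counted once per stage and assigned to a mature miRNA when it started at the same base and shared the first 18 bases. Where listed miRNAs share these 18 bases, a later base told them apart. All other reads were joined into groups by scaffold, strand and position. The 2 libraries held 393085 of the 576915 distinct sequences in the series. Of 189 listed miRNAs, 149 had reads in these data. With 1 pooled library per stage there is no replicate, so the difference between stages has no replicate check and no test was made. A ratio is LT over PR, after scaling, and its range in parentheses is the exact conditional (Clopper-Pearson) 95% interval, which covers counting error only and neither the spread between animals nor library preparation.

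miRNAs are cut from hairpin precursors by the nucleases Drosha and Dicer, and either strand of the duplex, the 5p or the 3p arm, can be loaded into an Argonaute protein. The loaded strand finds its target messages mainly through the seed, the bases just after its first base, so miRNAs with the same seed share many predicted targets. Liver small RNA is dominated by miR-122-5p, the main hepatocyte miRNA. Libraries of short RNA also hold fragments of tRNA, rRNA, Y RNA and other transcripts. Mature tRNAs end in CCA, added after transcription, and short 3′ tRNA fragments that keep this end are a known class of small RNA.

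The miRNAs at the ends of the range of ratios are shown first, as the most frequent sequence of each in the deposited reads. Capitals mark the seed, bases 2 to 8. Of the miRNAs with the highest ratios, several come from a pair of clusters, shown with the partner arms that are compared later. The first holds the red-cell miRNAs of the miR-144/451 locus.
miR-144-5p: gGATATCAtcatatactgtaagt
miR-144-3p: tACAGTATagatgatgtacta
miR-451a: aAACCGTTaccattactgagttt
The second is the miR-106b-25 cluster, whose members belong to a growth-associated group of related clusters. The first and second of the following share a seed.
miR-106b-5p: tAAAGTGCtgacagtgcagata
miR-93-5p: cAAAGTGCtgttcgtgcaggtag
miR-25-5p: aGGCGGAGacttgggcaattgct
miR-25-3p: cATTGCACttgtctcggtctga
Next come miRNAs with low ratios, and miR-148b-3p, shown only because it shares the seed of miR-152-3p.
miR-10a-5p: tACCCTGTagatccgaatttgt
miR-200a-3p: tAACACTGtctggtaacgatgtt
miR-152-3p: tCAGTGCAtgacagaacttgg
miR-148b-3p: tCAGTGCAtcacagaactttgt
miR-184-3p: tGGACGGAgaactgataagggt

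Depth was similar. Placed reads numbered 5614441 in PR and 5860476 in LT, in 249950 and 190722 distinct sequences. Listed miRNAs took 5254432 of them in PR and 5568216 in LT. That left 358538 and 291037 reads outside listed miRNAs. The labelled tissue was visible in miR-122-5p, which held 80.0% of miRNA reads in PR and 80.3% in LT. Of the other hepatocyte markers, miR-101-3p and miR-122-3p were present, miR-455-3p had 10 and 5 reads, and miR-192-5p, miR-194-5p, miR-148a-3p and miR-885-5p had no read in any library. Only placed reads are in these data, so a miRNA whose locus is missing from the genome used for placement can be absent or be placed at the locus of a relative.

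Most miRNAs differed little between late torpor and summer. Among 103 with at least 100 reads over both libraries, 3 (2.91%) were at least 2-fold higher in LT and 2 (1.94%) at least 2-fold lower, or 4.85% in either direction, while 93 lay within 1.5-fold. The median ratio was 0.964. Counting intervals of 23 miRNAs (22.3%) were wholly above 1 and those of 35 (34%) wholly below, while 45 included 1. Levels are given as normalised CPM, read counts scaled to the miRNA reads of each library.

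**Figure D1:**
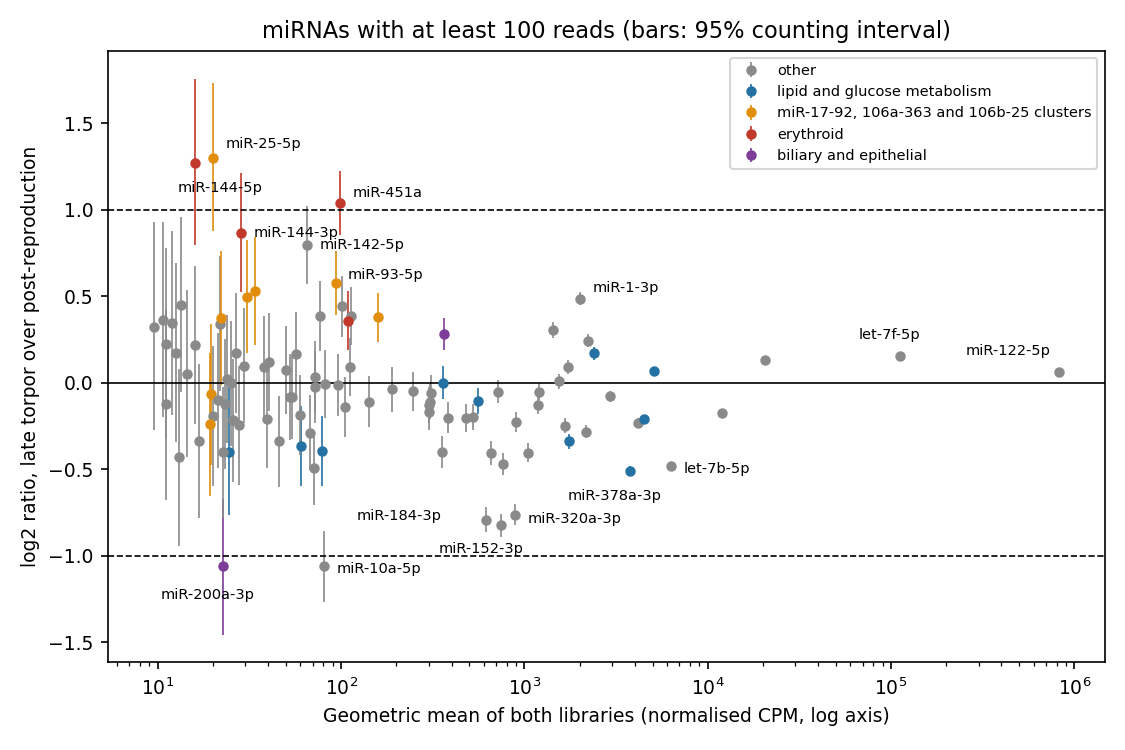
Log2 ratio of late torpor over post-reproduction against the geometric mean level of both libraries (normalised CPM, log axis) for 103 miRNAs with at least 100 reads. Each point is 1 miRNA, bars are 95% counting intervals, colours mark lists, and dashed lines mark 2-fold. miR-451a, the miR-144 arms and miR-25-5p lie at the top, and miR-10a-5p and miR-200a-3p at the bottom. The most abundant miRNAs on the right lie between the dashed lines.

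Red-cell miRNAs made up much of the upper end. miR-451a, which is cut by Argonaute instead of Dicer and is abundant in red cells, had 356 reads (68.7 CPM) in PR and 744 reads (141 CPM) in LT, a ratio of 2.05 (1.81 to 2.34). The arms of miR-144 lie beside it on GeneScaffold_2360, minus strand, where miR-144-5p began at 54378, miR-144-3p at 54341 and miR-451a at 54209. miR-144-5p was placed at 3 positions, so the position printed for it is 1 of several. Positions throughout are those of the deposited table, in a build whose name is not given in its headers or the labels. The minor arm, miR-144-5p, had 53 reads in PR and 130 in LT, a ratio of 2.41 (1.74 to 3.38). The major arm, miR-144-3p, had 109 and 202 reads, with a ratio of 1.82 (1.43 to 2.32). Both arms and miR-451a were thus higher in LT, and neither arm's share of miR-144 reads could be told apart between the libraries, since the 5p share was 32.7% (25.6 to 40.5) in PR and 39.2% (33.9 to 44.6) in LT. The other red-cell marker, miR-486-5p, stood at 95.9 CPM in PR and 123 CPM in LT, a ratio of 1.28 (1.14 to 1.44). Its partner arm miR-486-3p, not on the marker list, had 98 and 79 reads, a ratio of 0.792 (0.581 to 1.08). All 4 erythroid markers had intervals above 1, with a median ratio of 1.94 against 0.964 over all miRNAs compared, and their summed level was 196 CPM in PR, 327 CPM in LT and 148 CPM in EA. Of these markers, miR-451a and both arms of miR-144 share a locus and are not separate observations. The part of blood in the pooled liver was not tested. In a bulk sample, more cells of a type and more RNA per cell cannot be told apart.

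The highest ratio of all was that of miR-25-5p, the minor arm of miR-25. It had 66 reads (12.7 CPM) in PR and 165 reads (31.3 CPM) in LT, a ratio of 2.45 (1.83 to 3.32). Its partner miR-25-3p, the arm usually studied, had 721 and 953 reads and a ratio of 1.30 (1.18 to 1.43). The 5p share of miR-25 reads was accordingly 8.39% (6.55 to 10.5) in PR and 14.8% (12.7 to 16.97) in LT, so here the arms did not move by the same factor. The 3 hairpins lie together on the minus strand of GeneScaffold_4329, with miR-106b-5p beginning at 19327, miR-93-5p at 19103 and miR-25-5p at 18897. miR-93-5p had 396 and 600 reads, a ratio of 1.49 (1.31 to 1.69). miR-106b-5p had 147 and 216 reads, a ratio of 1.44 (1.16 to 1.79). Summed over the shared seed AAAGTGC, miR-106b-5p, miR-17-5p and miR-93-5p had 644 reads in PR and 949 in LT, a ratio of 1.45 (1.31 to 1.60). Within the list of miR-17-92, miR-106a-363 and miR-106b-25 clusters, 8 of 14 members could be compared, of which 1 was at least 2-fold higher and 5 had intervals above 1, where 2.91% and 22.3% of all miRNAs compared did. miR-17-3p, the more frequent arm of miR-17 here, had 133 and 191 reads, a ratio of 1.41 (1.12 to 1.77). Its partner miR-17-5p had 101 and 133 reads, a ratio of 1.29 (0.991 to 1.69). The exceptions included miR-92a-3p with 104 and 101 reads and miR-363-3p with 109 and 94 reads, whose intervals held 1.

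Arms were compared for 15 hairpins with at least 20 reads per arm over both libraries. In 13 of the 15 both arms lay on the same side of 1. The intervals of the 5p share did not overlap for 4 hairpins. Besides miR-25, these were miR-486, where the 5p share was 83.5% (80.3 to 86.4) in PR and 89.1% (86.6 to 91.3) in LT, and miR-221, at 40.4% (39.6 to 41.2) and 43.7% (42.9 to 44.6). The fourth, miR-30a, went the other way, from 93.4% (92.6 to 94.1) to 90.4% (89.4 to 91.4).

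Several other miRNAs were moderately higher in LT. miR-142-5p, a miRNA of blood-forming cells, had 257 reads at its listed start in PR and 454 in LT, a ratio of 1.73 (1.49 to 2.03). That start held only 15.4% of the reads at its locus in PR and 18.3% in LT, and a start 2 bases upstream held 80.1% and 77.4%, with 1335 and 1918 reads. With shifted starts the ratio was 1.48 (1.39 to 1.57), from 1666 and 2477 reads. Of the other leukocyte markers only miR-146a-5p could be compared, with 125 and 117 reads, and miR-223-3p and miR-155-5p had 14 and 12 reads each. miR-130a-3p and miR-130b-3p, which share the seed AGTGCAA, together had 510 and 705 reads, a ratio of 1.36 (1.21 to 1.52). miR-16-5p had 515 and 685 reads, a ratio of 1.31 (1.16 to 1.47), while miR-195-5p, of the same seed, had 144 and 126. The muscle miRNA miR-1-3p had 8765 and 12493 reads, a ratio of 1.40 (1.36 to 1.44). Its usual cluster partner in muscle, miR-133a-3p, had no read in PR and 1 in LT, and miR-206-3p, with the same seed as miR-1-3p, had 60 and 56.

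At the lower end, miR-10a-5p, encoded in a HOX gene cluster, had 607 reads (117 CPM) in PR and 296 reads (56.1 CPM) in LT, a ratio of 0.479 (0.415 to 0.551). miR-200a-3p, typical of epithelia and in liver of bile-duct cells, had 170 and 83 reads, a ratio of 0.479 (0.364 to 0.627). Its relative miR-200b-3p lay in the same direction at 59 and 30 reads, too few for a call, with a ratio of 0.499 (0.311 to 0.788). Of the other epithelial markers only miR-31-5p could be compared, and it lay in the other direction, with 1708 and 2112 reads, a ratio of 1.21 (1.14 to 1.29).

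More abundant miRNAs were lower by a smaller factor. miR-152-3p, a regulator of DNA methyltransferase 1 in other systems, had 5121 reads (988 CPM) in PR and 2942 reads (557 CPM) in LT, a ratio of 0.564 (0.539 to 0.590). The level of miR-148b-3p, with which it shares its seed, had a ratio of 0.865, and summed over the seed the ratio was 0.576 (0.551 to 0.603). miR-184-3p had 4198 and 2468 reads, a ratio of 0.577 (0.549 to 0.607), and 1460 reads in EA. miR-320a-3p, which is made without Drosha, had 6012 and 3607 reads, a ratio of 0.589 (0.565 to 0.614). These 3 miRNAs stood apart from the next lowest, miR-378a-3p, which lies in an intron of the metabolic coactivator gene Ppargc1b and had 23256 and 16619 reads, a ratio of 0.702 (0.688 to 0.716). Further down the list of lower ratios came miR-28-3p at 0.710 (0.612 to 0.823), let-7b-5p at 0.715 (0.704 to 0.726) and miR-222-3p at 0.722 (0.690 to 0.754). miR-30a-5p at 0.754 (0.718 to 0.790) and miR-140-3p at 0.754 (0.726 to 0.783) followed. For miR-140-3p, the listed start held 30.1% of reads at the locus in PR and 28.9% in LT, and a start 1 base downstream held 67.5% and 68.7%. miR-151-5p had 78 and 59 reads, and its interval held 1.

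The lipid and glucose list had 10 of 12 members compared, with none at least 2-fold apart, 7 intervals below 1, 2 above and a median ratio of 0.827, where 34% of all miRNAs compared had intervals below 1, 22.3% above, and the median was 0.964. miR-33-5p, encoded within a sterol-regulator gene, had 466 and 361 reads, a ratio of 0.761 (0.661 to 0.875). miR-103-3p and miR-107-3p, which dampen insulin signalling and were counted together, had 24939 and 21920 reads, a ratio of 0.863 (0.848 to 0.879). The 2 exceptions were miR-26a-5p at 1.12 (1.10 to 1.15) and miR-29a-3p at 1.05 (1.03 to 1.06). Of 5 mesenchymal and stellate-cell miRNAs compared, 4 had intervals below 1, against 34% of all miRNAs, and none was at least 2-fold apart. Their median ratio was 0.888. Among them miR-199a-3p had 12360 and 10327 reads, while the interval of miR-100-5p, at 0.973 (0.890 to 1.06), held 1. Counting intervals are narrower at high read counts and then leave 1 more easily. Most members compared in the metabolic and mesenchymal lists had more reads than most miRNAs compared. The shares over all miRNAs are therefore not matched for depth. The hypoxia miRNA miR-210-3p had no read in either library. The endothelial arms miR-126-3p and miR-126-5p both had a ratio of 1.27, with intervals that held 1.

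The 10 most abundant miRNAs had ratios from 0.702 to 1.11. The most abundant, miR-122-5p, had 4205895 reads in PR and 4468981 in LT, a ratio of 1.04 (1.04 to 1.04). miR-101-3p, also a hepatocyte marker here, had 23469 and 20351 reads at its listed start, a ratio of 0.851 (0.836 to 0.868). That start held 49.9% of the reads at its locus in PR and 49.4% in LT, and a start 1 base upstream held 49.6% and 50.1%. With shifted starts the ratio was 0.870 (0.858 to 0.881), from 47018 and 41194 reads. Members of the let-7 family, which share the seed GAGGTAG, went in different directions. let-7f-5p had 550101 and 624318 reads, a ratio of 1.11 (1.11 to 1.12), and let-7a-5p had a ratio of 1.10 (1.09 to 1.10). let-7c-5p at 0.886 (0.876 to 0.896), let-7i-5p at 0.947 (0.926 to 0.969) and let-7b-5p lay below 1, so that the seed as a whole had a ratio of 1.07 (1.06 to 1.07). Near-identical members of this family can exchange reads through sequencing errors. Over the 17 seeds shared by at least 2 compared miRNAs, the ratio of the highest to the lowest member was at most 1.73.

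The ends of miRNAs were compared next, since a shifted start moves the seed and a longer 3′ end can mark trimming or tailing. Of 42 miRNAs with at least 1000 reads in each library, none differed by 5 percentage points or more in the share of reads at the listed start, and 37 stayed within 1 point. The differences, LT minus PR, ranged from -1.94 points for miR-124-3p to 2.89 points for miR-142-5p. Insert lengths were compared as well, with the insert end read from the adapter. Of 41 miRNAs with at least 1000 readable inserts in each library, 29 had a longer mean insert in LT and 12 a shorter one. Of these, 11 were longer and 1 was shorter by at least 0.1 nt. These counts hold for the adapter reading only, and counts with other readings of the insert end are not printed here. For miR-122-5p, other readings changed the size of the difference, as described next.

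For miR-122-5p the mean insert was 22.1 nt in PR and 22.2 nt in LT. Its 22-nt form held 48.4% of inserts in PR and 39.8% in LT, and its 23-nt form 27.4% and 36.7%. Measured from the placed part of the read instead of from the adapter, the difference in the mean was 0.00761 nt in place of 0.156 nt. It was 0.141 nt with an exact adapter match and 0.146 nt over inserts whose ends were placed. The size of the difference thus depended on how the insert end was read. miR-27b-3p was longer by 0.218 nt in LT, miR-31-5p by 0.201 nt, miR-26b-5p by 0.166 nt and miR-26a-5p by 0.145 nt. At the other end miR-30a-5p had a mean difference of -0.177 nt, and its most frequent length was 24 nt in PR and 23 nt in LT.

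Inserts whose last bases were not placed were more frequent in LT for 29 of the 41 miRNAs and less frequent for 12. The most marked case was miR-26b-5p, where 28.5% of inserts (27.5 to 29.5) in PR and 41.1% (40.1 to 42.1) in LT ended in bases that were not placed. A single unplaced T made up most of it, at 15.7% of inserts in PR and 24.9% in LT. In the opposite direction, miR-181a-5p had such ends in 33.5% (31.8 to 35.2) of inserts in PR and 24.2% (22.7 to 25.7) in LT. The counts of 29 and 12 include miRNAs whose ends were nearly all unplaced in both libraries. These were miR-21-5p and let-7i-5p, each at 99.9% in PR and LT, and miR-222-3p, at 100% and 99.97%. Whether unplaced bases were added to the RNA or differ from the scaffold used for placement was not tested. The adapter was not found in 14.9% of miRNA reads in PR and 10.4% in LT, a difference in read quality or length whose part in these shares was not tested.

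**Figure D2:**
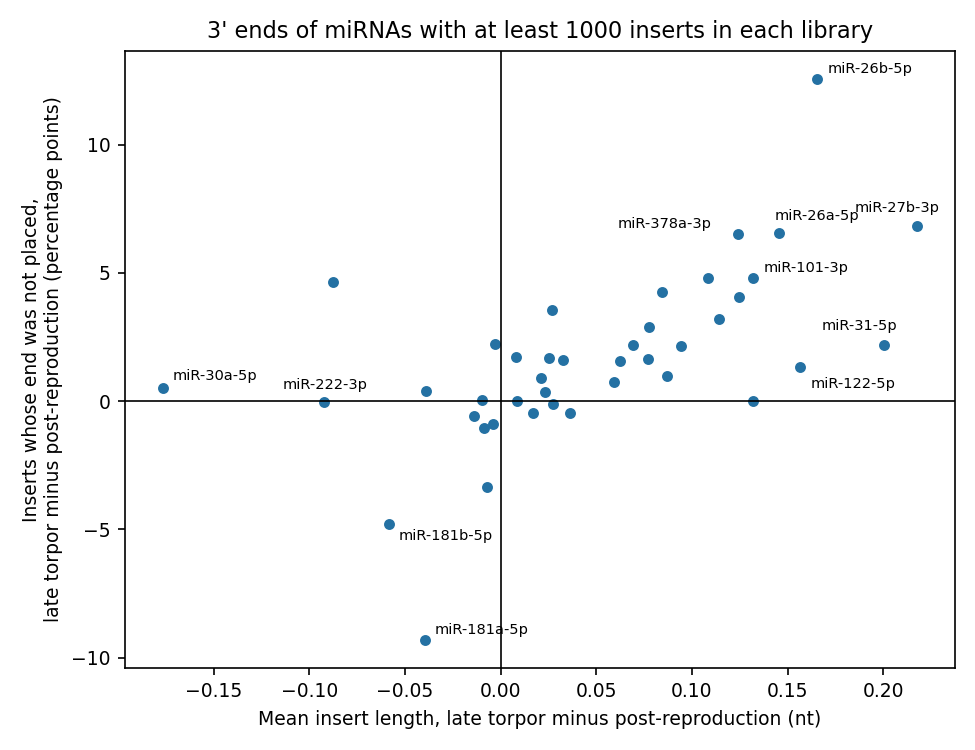
Difference between libraries (late torpor minus post-reproduction) in mean insert length in nt, on the horizontal axis, and in the share of inserts whose end was not placed, in percentage points, on the vertical axis. Each point is 1 of 41 miRNAs, those with 1000 or more readable inserts in both libraries. miR-26b-5p lies at the top right, miR-30a-5p at the far left and miR-181a-5p at the bottom.

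Outside listed miRNAs the libraries differed far more. The sequences that carry these differences are shown first, each as the most frequent insert of its group. Short 3′ tRNA fragments, with the CCA end in capitals, were among the highest ratios.
tRNA-Gln, GeneScaffold_132: atctcgctggggcctCCA
tRNA-Gln, GeneScaffold_113: atctcggtgggacctCCA
tRNA-Gln, scaffold_43070: atctcggtggaacctCCA
tRNA-Pro, scaffold_158711: atcccggacgagcccCCA
tRNA-Ser, GeneScaffold_3198: atcctgccgactacgCCA
tRNA-Leu, scaffold_118384: atcccacttctgacaCCA
Internal tRNA fragments were also higher, in these examples without a CCA end.
tRNA-Pro, scaffold_133385: aggggtatgattctcggt
tRNA-Lys, GeneScaffold_3124: tcggtagagcatgagac
Fragments like mitochondrial 16S rRNA had the lowest ratios.
16S rRNA, GeneScaffold_1958: aagtaaaaggaactcggca
16S rRNA, GeneScaffold_2981: gaaaggacaagagaaataaggcca
The start of 28S rRNA and a sequence with a snoRNA-like C box (TGATGA, in capitals) were lower as well.
28S rRNA, scaffold_59339: cgcgacctcagatcagacgt
C-box-like, GeneScaffold_5301: ctggaTGATGAtaagaagataactgatt

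The parent molecules were named by short anchor sequences known from other mammals and not by a genome annotation. Of 366 position groups with at least 100 reads over both libraries, 52 (14.2%) were at least 2-fold higher in LT and 86 (23.5%) at least 2-fold lower, with a median ratio of 0.874. Among them 196 groups were near-copies, whose main sequence resembled an abundant miRNA (up to 8 mismatches), another listed miRNA or a far more frequent sequence. Without these, 22 of 170 groups (12.9%) were at least 2-fold higher and 45 (26.5%) at least 2-fold lower.

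**Figure D3:**
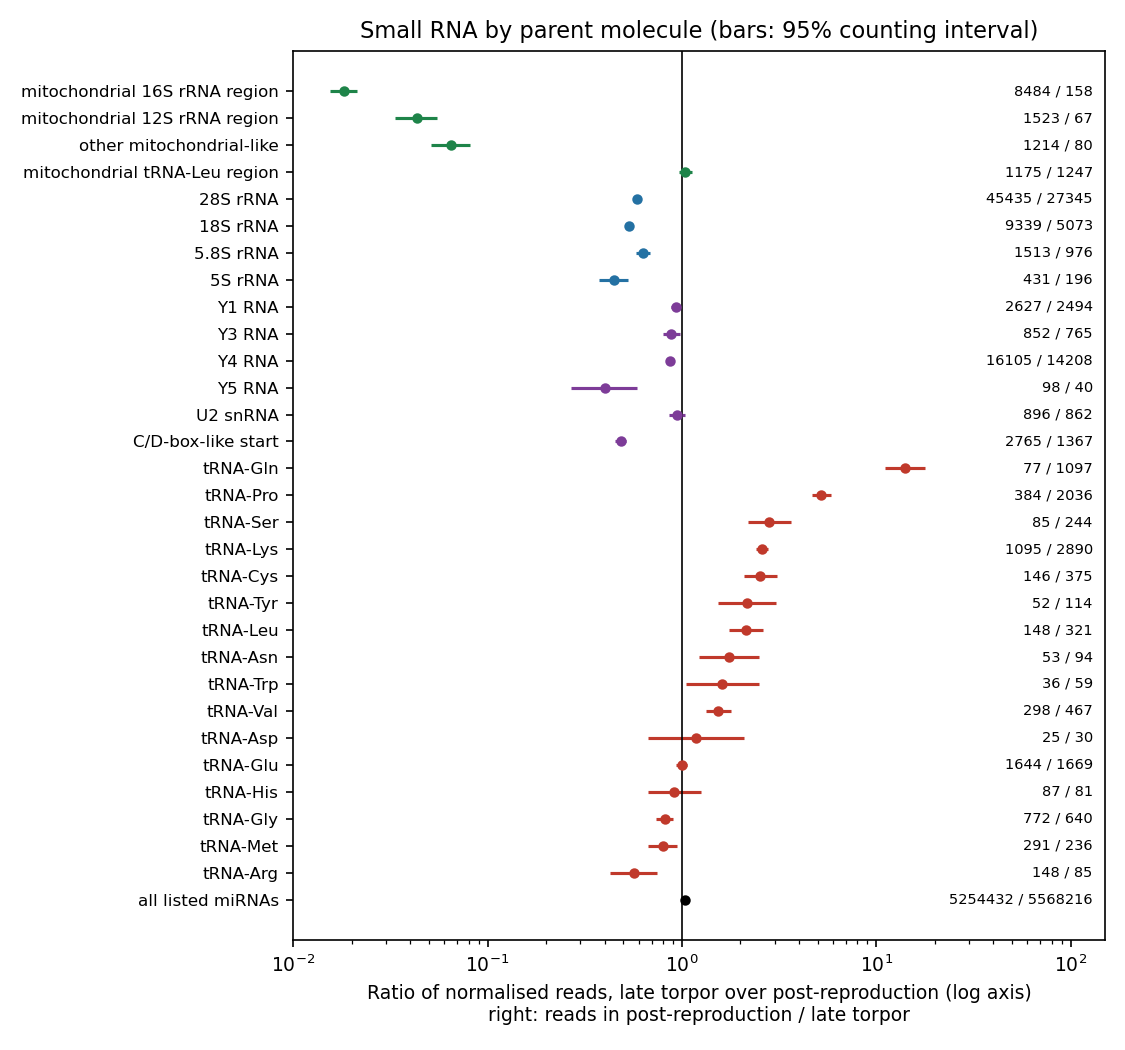
Ratio of normalised reads, late torpor over post-reproduction (log axis), summed by parent molecule, with 95% counting intervals as bars. Reads in post-reproduction and late torpor are printed on the right. Mitochondrial rRNA-like fragments lie lowest at the left, nuclear rRNA and the C/D-box-like group below 1, Y RNA close to 1, and tRNA-Gln and tRNA-Pro furthest to the right.

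Fragments of tRNA were the main class with higher counts in LT. Together they had 5352 reads in PR, 10461 in LT and 10695 in EA, a ratio of LT over PR of 1.92 (1.86 to 1.98). Of 23 tRNA groups compared, 14 were at least 2-fold higher and none at least 2-fold lower, against 14.2% and 23.5% of all position groups. Their median ratio was 2.93. With only sequences placed at 1 position, which keeps 451 reads in PR and 1416 in LT, the ratio was 3.08.

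The tRNAs did not move together. tRNA-Gln had 77 reads in PR and 1097 in LT, a ratio of 14.0 (11.1 to 17.9), and only 141 in EA. tRNA-Pro had 384 and 2036 reads, a ratio of 5.21 (4.67 to 5.82), and 686 in EA. For both, the count in EA lay closer to PR than to LT. tRNA-Lys had 1095 and 2890 reads, a ratio of 2.59 (2.42 to 2.78), but its 2830 reads in EA were close to the count in LT. tRNA-Ser at 2.82 (2.19 to 3.65), tRNA-Cys at 2.52 (2.08 to 3.07), tRNA-Tyr at 2.15 (1.54 to 3.05) and tRNA-Leu at 2.13 (1.75 to 2.61) were likewise higher. tRNA-Glu, with 1644 and 1669 reads, did not differ beyond counting error, and tRNA-Gly, at 772 and 640 reads, was lower with a ratio of 0.814 (0.732 to 0.905). tRNA-Met at 0.796 (0.668 to 0.949) and tRNA-Arg, the lowest, at 0.564 (0.427 to 0.741) from 148 and 85 reads, were lower too. Sequences of tRNA-Ala or of repeats that resemble it were kept out of the tRNA total and had 986 and 1123 reads, a ratio of 1.12 (1.03 to 1.22).

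The highest group of all was the tRNA-Gln fragment on GeneScaffold_132, plus strand, 646331 to 646348, with 12 reads in PR, 657 in LT and 19 in EA. Its ratio was 53.8 (30.6 to 105). The second tRNA-Gln fragment, on GeneScaffold_113, minus strand, 206295 to 206312, had 4 and 146 reads, a ratio of 35.8 (13.7 to 133). The third, on scaffold_43070, minus strand, 1617 to 1634, had 4 and 104 reads, a ratio of 25.5 (9.68 to 95.5). All 3 have a most frequent insert of 18 nt that ends in CCA, and all 3 were placed at 13 to 27 positions, so the position printed is 1 of several. The tRNA-Pro fragment on scaffold_158711, plus strand, 11312 to 11329, had 17 and 343 reads, a ratio of 19.8 (12.2 to 34.4). The tRNA-Ser fragment on GeneScaffold_3198, minus strand, 57469 to 57486, had 9 and 92 reads, a ratio of 10.0 (5.06 to 22.6).

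Further tRNA fragments are named here after their values were seen. The tRNA-Leu fragment on scaffold_118384, which also ends in CCA, had 16 and 130 reads, a ratio of 7.98 (4.73 to 14.4). Short CCA-ended inserts of tRNA-Met, in contrast, had 19 and 20 reads, a ratio of 1.03 (0.524 to 2.05). An internal tRNA-Pro fragment on scaffold_133385, which lacks the CCA end, had 285 and 1283 reads, a ratio of 4.42 (3.88 to 5.04). An internal tRNA-Lys fragment of 17 nt on GeneScaffold_3124 had 514 and 1535 reads, a ratio of 2.93 (2.65 to 3.25). The main tRNA-Glu group, on GeneScaffold_2965, had 1589 and 1626 reads. Its equal totals hid a change in length: over all tRNA-Glu reads, inserts of up to 19 nt without a CCA end had 182 reads in PR and 765 in LT, a ratio of 4.13 (3.51 to 4.88). Reads in which no adapter was found numbered 973 and 464, a ratio of 0.468 (0.418 to 0.524).

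The tRNA fragments also differed by length and end. Inserts of up to 19 nt that end in CCA had 68 reads in PR, 1449 in LT and 178 in EA, a ratio of 20.9 (16.4 to 27.1). They made up 1.27% (0.988 to 1.61) of tRNA reads in PR and 13.9% (13.2 to 14.5) in LT. Other short tRNA inserts had 1221 and 4693 reads, a ratio of 3.77 (3.54 to 4.02). Reads in which the adapter was not found, which are longer fragments or reads with an unread end, numbered 2607 and 1861, a ratio of 0.701 (0.660 to 0.744). Short tRNA fragments were thus higher in LT and reads without a found adapter lower, while the adapter was found more often in LT in miRNA reads as well. The 18-nt length alone held 10.3% of tRNA reads in PR and 33.2% in LT. Among all 18-nt inserts outside miRNAs, 1.59% ended in CCA in PR and 21.9% in LT. Outside named tRNAs the share of inserts ending in CCA was nearly equal, at 1.59% (1.51 to 1.68) in PR and 1.62% (1.52 to 1.73) in LT. RNA of 18 to 30 nt was cut from a gel for each pool, so 18 nt lies at the edge of the cut, and the part of the gel cut in these shares was not tested. Listed miRNAs of 18 nt held 0.0691% (0.0669 to 0.0714) of miRNA reads in PR and 0.0698% (0.0677 to 0.0721) in LT. These were 3633 and 3890 reads. In other classes the share at 18 nt went both ways. For nuclear rRNA fragments it was 3.90% in PR and 5.97% in LT. For mitochondrial-like fragments it was 3.89% and 2.13%, and for reads of no named class 5.10% and 2.53%.

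**Figure D4:**
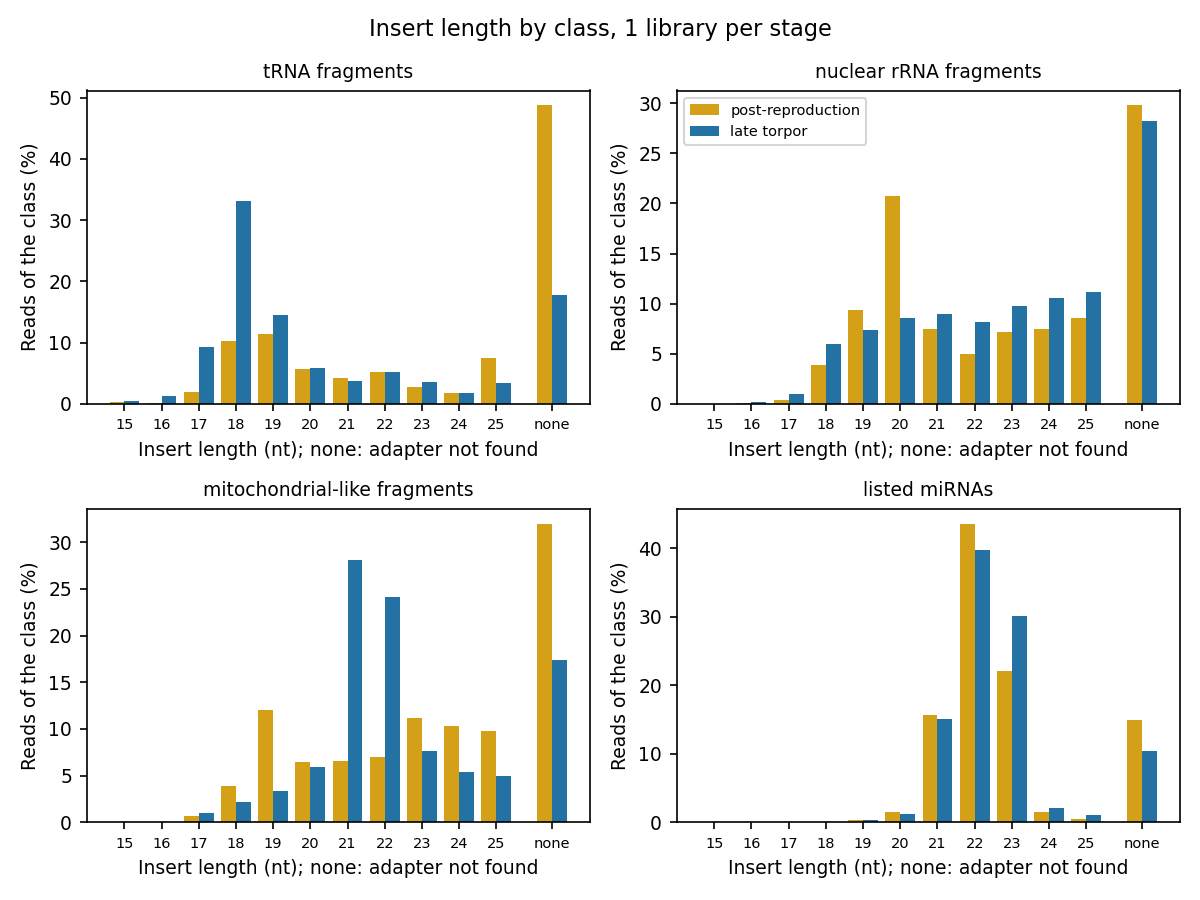
Share of reads by insert length (nt) in post-reproduction and late torpor, for tRNA, nuclear rRNA and mitochondrial-like fragments and listed miRNAs, with reads in which no adapter was found at the right of each panel. Late torpor shows a peak at 18 nt in tRNA fragments (33.2% against 10.3%), lacks the 20-nt peak of nuclear rRNA, and has more 23-nt miRNA inserts.

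Fragments like mitochondrial rRNA came largely from the PR library. The 16S rRNA region had 8484 reads in PR, 158 in LT and 346 in EA, a ratio of LT over PR of 0.0183 (0.0155 to 0.0214). The 12S rRNA region had 1523 reads in PR and 67 in LT, a ratio of 0.0432 (0.0333 to 0.0552). Sequences placed beside them, without a name of their own, had 1214 reads in PR and 80 in LT. Together these 3 sets had 11221 and 305 reads, a ratio of 0.0267 (0.0237 to 0.0299). Of 14 mitochondrial-like groups compared, 12 were at least 2-fold lower in LT and none at least 2-fold higher, against 23.5% and 14.2% of all position groups.

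The lowest of these was the 16S fragment on GeneScaffold_2981, plus strand, 80979 to 81002, with 1527 reads in PR, 8 in LT and 48 in EA, a ratio of 0.00514 (0.00222 to 0.0102). The largest was the 16S fragment on GeneScaffold_1958, minus strand, 73051 to 73069, with 4872, 47 and 105 reads, a ratio of 0.00947 (0.00695 to 0.0126). A 12S fragment on scaffold_85740, plus strand, 9150 to 9170, had 134 reads and 1 read, a ratio of 0.00733 (0.000184 to 0.0415). On scaffold_100102 a 16S fragment had 705 and 8 reads, on scaffold_81099 another had 337 and 4, and on GeneScaffold_1697 an adjacent fragment had 320 and 5. A further 16S fragment, on scaffold_116102, had 100 reads and 1 read, a ratio of 0.00982 (0.000246 to 0.0560). An unnamed group on GeneScaffold_3974, plus strand, 1056625 to 1056651, had 109 and 2 reads, a ratio of 0.0180 (0.00215 to 0.0667). The anchors gave it no name, its main sequence was placed at 201 positions, and its parent molecule was not tested.

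Mitochondrial-like fragments were not all lower. The region of mitochondrial tRNA-Leu, beside the 16S rRNA, had 1175 reads in PR, 1247 in LT and 1131 in EA, a ratio of 1.04 (0.962 to 1.13). In LT 21-nt and 22-nt inserts held 28.1% and 24.1% of mitochondrial-like reads, against 6.59% and 7.02% in PR. Their counts were nonetheless lower in LT, with 817 reads in PR and 436 in LT at 21 nt, and 870 and 374 at 22 nt. The tRNA-Leu reads were part of 12396 mitochondrial-like reads in PR and of only 1552 in LT. The main sequences of most of these groups were placed at 186 to 227 scaffold positions each, so reads of mitochondrial transcripts and reads of nuclear copies cannot be told apart. The sequences placed at 1 position kept 1681 reads in PR and 613 in LT, and their ratio over the whole class was 0.358 in place of 0.123 (0.117 to 0.130). Among them was a tRNA-Leu group on GeneScaffold_1958 with 492 and 535 reads, named after its values were seen. Of the rRNA-like groups named above, those on scaffold_81099 (337 and 4 reads) and scaffold_85740 (134 reads and 1 read) had a main sequence placed at 1 position.

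Nuclear rRNA fragments were lower by a smaller factor, with 56718 reads in PR and 33590 in LT, a ratio of 0.582 (0.574 to 0.589). Every rRNA was lower in sum, with 0.591 (0.582 to 0.600) for 28S, 0.533 (0.515 to 0.552) for 18S, 0.633 (0.584 to 0.687) for 5.8S and 0.447 (0.375 to 0.530) for 5S. Of 52 groups, 10 were at least 2-fold lower, no larger a share than the 23.5% over all position groups, and 1 was at least 2-fold higher. Their median ratio was 0.801, against 0.874 over all. The start of 28S rRNA, on scaffold_59339, minus strand, 869 to 888, accounted for a large part. It had 18469 reads in PR, 4779 in LT and 19297 in EA, a ratio of 0.254 (0.246 to 0.262). This fragment was therefore low in LT alone. A 28S fragment on scaffold_114894, minus strand, 49930 to 49955, had 9969 and 7205 reads, a ratio of 0.710 (0.688 to 0.732). Other rRNA groups were not lower, among them, chosen after their values were seen, a 28S fragment on scaffold_43677 with 3147 and 3569 reads, and an 18S fragment on scaffold_104825 with 1414 and 1485.

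Y RNAs, short transcripts bound by the Ro protein, differed little, with 19682 and 17507 reads, a ratio of 0.873 (0.856 to 0.891). Most came from the 3′ end of Y4 on GeneScaffold_3573, plus strand, 113005 to 113032, with 15436 and 13541 reads, a ratio of 0.861 (0.842 to 0.882). Y5 was lower, with 98 and 40 reads, a ratio of 0.401 (0.270 to 0.585). Fragments of the spliceosomal U2 snRNA had 896 and 862 reads. Sequences with TGATGA within their first 12 bases, the C box that opens many snoRNAs, had 2765 reads in PR, 1367 in LT and 4072 in EA, a ratio of 0.485 (0.455 to 0.518). Of 6 such groups 2 were at least 2-fold lower, against 23.5% of all position groups, the larger being that on GeneScaffold_5301, minus strand, 1379 to 1406, with 1395 and 468 reads, a ratio of 0.329 (0.296 to 0.366), named after its values were seen. The letters TGATGA can occur by chance, so the group is not a set of known snoRNAs.

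Of 60 groups without a name, 7 were at least 2-fold higher and 18 at least 2-fold lower, near the 14.2% and 23.5% over all position groups. The most abundant, on scaffold_86075, plus strand, 83 to 104, had 3920 reads in PR, 6168 in LT and 3933 in EA, a ratio of 1.55 (1.48 to 1.61). The 196 near-copies had ratios from 0.103 to 15.6, and 30 were at least 2-fold higher and 41 at least 2-fold lower, also near the 14.2% and 23.5% over all. The highest were on scaffold_55469, minus strand, 101 to 118, with 12 and 191 reads, on scaffold_129720, plus strand, 57001 to 57018, with 19 and 298 reads, and on scaffold_141999, plus strand, 6801 to 6818, with 221 and 1882 reads. The most abundant near-copy, on scaffold_117550, had 21667 and 13817 reads, a ratio of 0.626 (0.613 to 0.640). Whether near-copies are transcripts of their own or misread copies of abundant miRNAs was not tested.

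**Figure D5:**
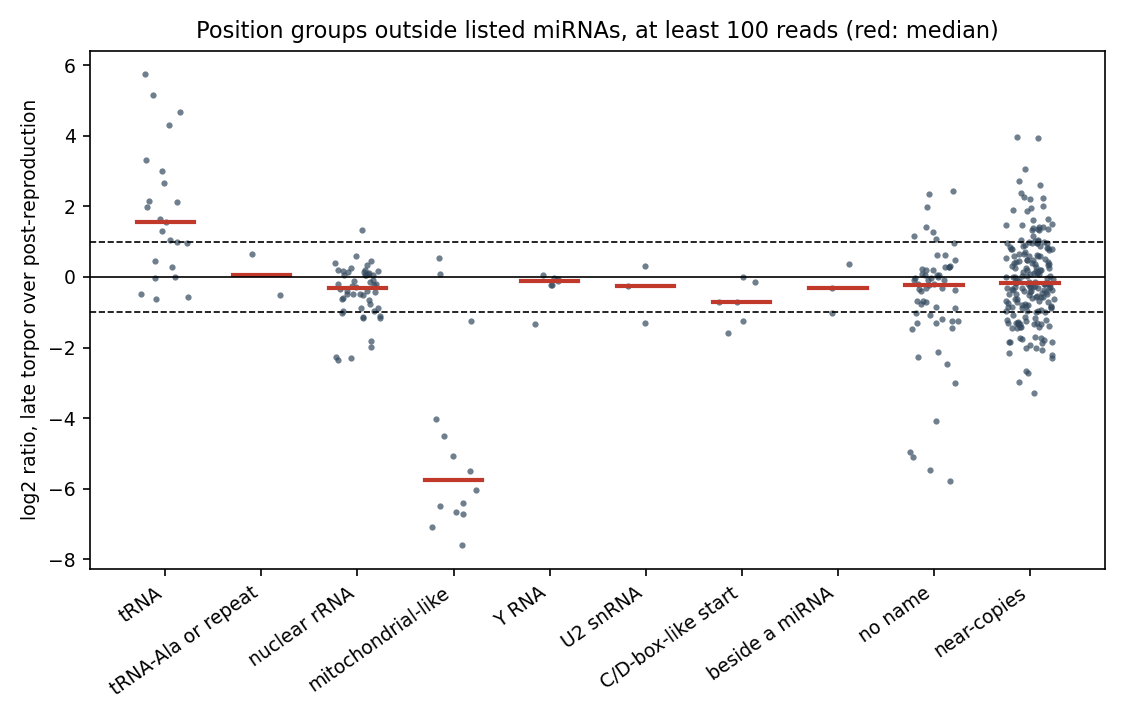
Log2 ratio of late torpor over post-reproduction for 366 position groups outside listed miRNAs with at least 100 reads, by class. Each point is 1 group, red lines are class medians and dashed lines mark 2-fold. tRNA groups lie mostly above 0, mitochondrial-like groups mostly far below, and nuclear rRNA, Y RNA and near-copies centre slightly below 0.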

How the data were processed

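The deposited table holds 1 text entry per read sequence and stage, with its read count, per the file headers. The authors' counts are whole numbers of 30-base reads, with the part placed on a scaffold in capitals, and were used as deposited. Which aligner, genome build and read filters were used is not given in the sources used here. Per the labels' protocols, equal amounts of total RNA were mixed within a stage, RNA of 18 to 30 nt was cut from a gel, and 15 cycles of PCR followed, without molecular identifiers, so intervals cover counting error only.

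Each sequence was counted once per stage. miRNA and anchor sequences were written from general knowledge and not checked against a database. Reads fitting several miRNAs equally (1471 in PR, 1223 in LT) were left out. Other reads were joined where starts on 1 strand lay within 5 bases, a multiply placed sequence being counted in the group with most reads. Near-copies lie within 8 mismatches of 1 of the 10 most abundant miRNAs, within 3 of another listed one, or, for groups of at least 100 reads without a name, within 5 of a sequence at least 20 times as frequent. Mitochondrial-like also includes sequences with at least 25% of their placements within 3000 bases of a mitochondrial anchor. The 3′ adapter was searched with up to 1 mismatch in 5 bases, which reads inserts of 15 to 25 nt.

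Scaling factors were trimmed means of M-values over miRNA counts (30% trimmed on ratio, 5% on abundance) against early arousal, computed in Python 3.11.15 (numpy 2.4.6). The factors were 0.986 (PR), 0.948 (LT) and 1.07 (EA). A miRNA with no read lies under the limit that 3 counts allow, 0.579 CPM in PR and 0.568 in LT. Intervals came from scipy 1.17.1 and figures from matplotlib 3.10.9. The code was tested on simulated data.

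Libraries were grouped by the labelled stage. The members, lists, anchors and rules were chosen with earlier results of these data known. Named are the 12 highest and 12 lowest ratios and the 10 most abundant miRNAs, list members where their list is described, the 8 highest, 8 lowest and 8 most abundant position groups, and the 5 largest differences in length or start each way; others are said to be named after their values were seen, and not every member named by the rule is printed. Alternatives covered scaling, read minimum, read assignment, multiple placement and the fold limit.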

Additional observations from a re-analysis of the deposited data

How the results depend on the processing

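No paired analysis was possible because each stage has 1 library, and no library could be left out. The direction held in 212 of 213 alternatives for named miRNAs and 97 of 99 for named position groups, and no result at least 2-fold apart changed sides. The exceptions were miR-122-5p with the most frequent insert only (0.975) and near-copies whose ratios crossed 1. Of the miRNAs at least 2-fold apart, miR-25-5p (2.36 to 2.56) and miR-144-5p (2.31 to 2.81) stayed so in every alternative that gave a value. For miR-144-5p, placed at 3 positions, the alternative with sequences placed at 1 position gave none. miR-451a was short of 2-fold with plain miRNA scaling (1.97) and with sequences placed at 1 position only. miR-10a-5p was short of it with the most frequent insert only (0.545) and with shifted starts (0.502). miR-200a-3p was short of it with the most frequent insert only (0.518). The count of miRNAs at least 2-fold lower was 5 at a minimum of 20 reads, 7 (and 8 higher) with no minimum beyond 1 read in each library, 0 with the most frequent insert only and 1 with shifted starts. With sequences placed at 1 position 1 miRNA was higher, and at a 1.5-fold limit 5 were higher and 5 lower.

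Position groups at least 2-fold higher and lower numbered 212 and 308 of 1209 at a minimum of 20 reads, and 30 and 45 of 212 with sequences placed at 1 position. With near-copy sequences removed from every group, an alternative chosen after seeing the data, they numbered 22 and 44 of 170. At a 1.5-fold limit 84 were higher. Scaling over the position groups in place of miRNAs shifted every log2 ratio by 0.16, to class ratios of 0.137 for mitochondrial-like, 0.650 for nuclear rRNA, 2.15 for tRNA, 0.976 for Y RNA and 0.543 for TGATGA starts. With sequences placed at 1 position these were 0.358, 0.686 and 3.08 for the first 3 classes, and with plain scaling to placed reads 0.567 for nuclear rRNA and 0.852 for Y RNA. The mitochondrial-like values cover both the rRNA-like fragments and the tRNA-Leu region, whose own ratio in the main analysis was 1.04. The cause of these shifts was not tested.

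Depth limits the rarest members: near 100 reads an interval spans about 2-fold, and the spread between animals is hidden by pooling.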
